A study of Mus musculus with 46 samples.

Results

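H3K27ac, the acetylated form of histone H3 that marks active promoters and enhancers, was mapped in liver by ChIP-seq, and this account describes its broadest domains. Overlapping SICER peaks of 6 liver samples were merged into 62774 loci, of which 29890 held a peak in all 6 samples. The 500 loci with the largest covered length (the number of bases inside peaks, averaged over the 6 samples) were chosen by that length alone and are called domains here, 1.67% of the loci found in all 6 samples. Covered length therefore is given as a description and was not tested.

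All livers came from male C57BL/6 mice that received a lipid-rich diet (LD) or a carbohydrate-rich diet (CD) for 20 weeks after 5 weeks of age and a period on chow. Fat supplied 60% of the energy of the LD and 10% of that of the CD, carbohydrate 20% and 70%, and protein 20% of both. H3K27ac was measured in 3 samples per diet, the nuclear receptor Hnf4a and the bZIP factor C/EBPa in 2 per diet each, and RNA in 5 mice per diet. Hi-C and promoter capture Hi-C (PCHi-C), which reports the fragments that touch baited promoters, had 2 replicates per diet that the authors pooled, so their values carry no replicate error. No transgene or engineered deletion is named for the mice, and whole liver, a mixture of cell types, was sampled. In such bulk samples fewer cells of a type and less RNA per cell cannot be told apart.

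Acetylation of H3 lysine 27 is written by CBP and p300, which transcription factors recruit to enhancers and promoters. In most tissues a small number of loci carry this mark over very long stretches, often across a gene body with clusters of enhancers, and such stretches tend to lie at genes that define the cell type. In hepatocytes, Hnf4a and C/EBPa are among the factors that maintain the adult programme of plasma protein, lipoprotein, glucose and nitrogen metabolism.

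The sequences that follow show what was bound in the domains. Each is the 121-base window at the centre of a binding locus found in all 4 libraries of its factor, on the plus strand of mm9, with matches to the searched motif in capitals. For Hnf4a the letters CAAAGNNCA were searched, and for C/EBPa the letters TTGCNNAA, both on either strand. Heights are tag counts that the authors scaled to a common library size. The 2 highest Hnf4a loci in domains are shown first, and neither holds an exact match to the Hnf4a letters. Near matches, which differ by a single base, were not searched, so an Hnf4a element may still be present.
Hnf4a locus in an intron of Insr, chr8:3256674-3256794: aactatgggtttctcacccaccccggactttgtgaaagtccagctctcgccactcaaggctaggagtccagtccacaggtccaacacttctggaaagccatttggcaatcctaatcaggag
Hnf4a locus in an intron of Lifr, chr15:7109942-7110062: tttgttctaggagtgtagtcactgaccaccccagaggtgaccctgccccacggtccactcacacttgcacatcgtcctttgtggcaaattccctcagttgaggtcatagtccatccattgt
The Insr locus had heights of 539.5 and 398.5 on LD and 372.5 and 703 on CD, and the Lifr locus 464 and 357 on LD and 273 and 504.5 on CD. In both, the CD libraries held the lowest and the highest value. The 3 highest Hnf4a loci with the motif lie in an intron of Hagh, in an intron of Foxo3 and 23.0 kb upstream of the start of Ces1e.
Hnf4a locus in Hagh, chr17:24984429-24984549: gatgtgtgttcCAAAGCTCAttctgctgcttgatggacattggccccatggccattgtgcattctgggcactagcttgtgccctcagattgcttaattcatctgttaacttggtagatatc
Hnf4a locus in Foxo3, chr10:41990595-41990715: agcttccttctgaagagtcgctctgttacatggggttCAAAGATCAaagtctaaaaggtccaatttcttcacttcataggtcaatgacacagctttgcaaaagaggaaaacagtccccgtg
Hnf4a locus upstream of Ces1e, chr8:95776501-95776621: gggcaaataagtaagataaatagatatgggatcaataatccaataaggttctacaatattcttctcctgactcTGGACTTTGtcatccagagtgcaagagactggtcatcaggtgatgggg
The 4 highest C/EBPa loci of the domains all hold the C/EBPa motif, and each overlaps a Hnf4a locus.
C/EBPa locus in an intron of Slc25a37, chr14:69891837-69891957: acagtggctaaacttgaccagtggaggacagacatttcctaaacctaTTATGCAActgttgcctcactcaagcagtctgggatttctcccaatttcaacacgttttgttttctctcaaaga
C/EBPa locus in an intron of Aco1, chr4:40103266-40103386: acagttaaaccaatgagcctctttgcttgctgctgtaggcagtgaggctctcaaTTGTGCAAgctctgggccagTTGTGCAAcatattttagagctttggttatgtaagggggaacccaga
C/EBPa locus 0.11 kb upstream of Angptl8, inside Dock6, chr9:21639787-21639907: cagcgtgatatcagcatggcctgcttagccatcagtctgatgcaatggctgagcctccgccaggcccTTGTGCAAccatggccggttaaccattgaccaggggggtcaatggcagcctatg
C/EBPa locus 10.8 kb downstream of the Fgb start, between genes, chr3:82842956-82843076: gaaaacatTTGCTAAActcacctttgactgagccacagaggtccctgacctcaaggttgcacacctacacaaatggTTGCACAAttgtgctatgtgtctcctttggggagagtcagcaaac
The highest of these, in Slc25a37 (mitoferrin 1, a mitochondrial iron importer), had heights of 177.5 and 193.5 on LD and 341 and 237 on CD. The locus at Fgb (fibrinogen beta chain) had 130.0 and 133 on LD and 263.5 and 180.0 on CD. At all 4 of these C/EBPa loci both CD libraries were higher than both LD libraries. The same order was seen at 59.8% of the C/EBPa loci in domains and at 46.4% of all C/EBPa loci, so it was not particular to these 4.

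The covered length of the domains ran from 21.1 to 127 kb with a median of 28.2 kb, against a median of 2.70 kb for the other loci found in all 6 samples. As merged loci the domains spanned 22 to 133.2 kb, with a median of 32 kb and a sum of 18.1 Mb. Peaks covered a median of 89.6% of the span. A domain usually consisted of several peaks, since the median number per domain was 3 or 4 in every sample and only 47 to 72 domains were a single peak. The CV of covered length over the 6 samples had a median of 5.31% and was under 10% in 424 domains. Domains were found on each autosome, from 15 on chromosomes 12 and 16 to 44 on chromosome 11, and none on the X or Y chromosome. GC content was 46.9% in domains and 46.6% in the next 500 loci in rank, and CpG dinucleotides numbered 13.7 and 14.1 per kb. All loci found in all 6 samples other than the domains held 16.5 CpG per kb.

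**Figure D1:**
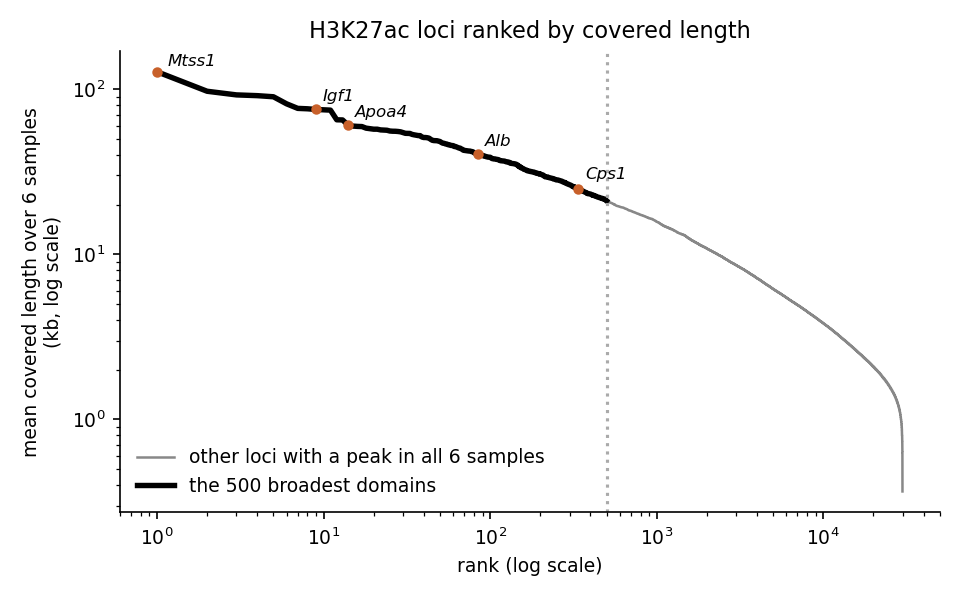
Mean covered length over 6 samples (kb, log scale) of each locus with a peak in all 6 samples, by rank (log scale). The thick black line is the 500 domains, from 127 kb at Mtss1 to 21.1 kb at rank 500, and orange points mark the domains of the 5 named genes.

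At the limit of the set, the domain at Slc45a3 (rank 500, chr1:133859000-133881399) and a locus at the Rbm47 start (the next in rank, chr5:66522400-66544799) had the same mean of 21067 bp. Ranks 496 to 499 held the domains at Eif1a and Tmed7, Usp3, Paqr7 and one inside Pecam1, with means of 21200.0, 21167, 21133 and 21100.0 bp. Ranks 502 to 505 held loci at Fau and 5 more genes, Hgd, Gt(ROSA)26Sor with Setd5, and Slc25a15 with 1810012K16Rik, with means of 21000.0 bp for the first and 20967 bp for the others. The members next to the limit therefore differed by less than the spread of their own samples.

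The broadest domain, on chr15:58785400-58918599, contained the start of Mtss1, which codes for an actin and membrane binding protein. It covered 129000, 126800 and 120200 bp on LD and 128000, 130800 and 129200 bp on CD. The second, on chr2:27525600-27625599, lay at Rxra, the retinoid X receptor that pairs with the lipid-sensing nuclear receptors. It covered 94000, 96200 and 95800 bp on LD and 98600, 99800 and 97600 bp on CD, so that the diets did not overlap although they differed by only 0.05 on the log2 scale. Next came domains at Zmiz1 (a transcriptional coregulator) and Shb (an adaptor of receptor tyrosine kinases), at means of 92200 and 91233 bp. Ranks 5 and 6 contained no start site and lay inside the genes Rbm47 and Tns1.

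Ppara, the receptor that drives fatty acid oxidation, occupied rank 7 together with Cdpf1. Its domain covered 80800, 78600 and 74800 bp on LD and 73200, 74200 and 76800 bp on CD, and these values overlapped. Rank 8, on chr6:31008800-31091999, held the miRNA genes Mir29a and Mir29b-1. It covered 78400, 78200 and 77200 bp on LD and 74800, 74400 and 72800 bp on CD, all LD samples above all CD samples. Rank 9 lay at Igf1, the hepatic growth factor of the circulation, with 73400, 68600 and 68000 bp on LD and 82400, 78200 and 81000 bp on CD. There the order was the opposite, with all CD samples higher. Plpp3, a lipid phosphate phosphatase, closed the first 10 with 73400 to 76800 bp in the 6 samples.

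Below these, domains held clusters of liver genes. Rank 14 (chr9:45989200-46056199) contained the starts of Apoa1, Apoc3 and Apoa4, and covered 61600, 60400 and 57000 bp on LD and 62000, 61800 and 61200 bp on CD. Rank 29 (chr3:82803200-82860599) contained Fga, Fgb and Fgg, the 3 fibrinogen chains, with Plrg1, and covered 53600 to 56200 bp in the 6 samples. Rank 27 (chr15:85482000-85540999) contained Lncppara and the let-7 genes Mirlet7c-2 and Mirlet7b, next to the Ppara domain, and covered 53200 to 57000 bp. Rank 164 (chr7:20258400-20291199) contained Apoe, Apoc1, Apoc4 and Apoc2. All 4 of these cluster domains had overlapping values on the 2 diets.

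**Figure D2:**
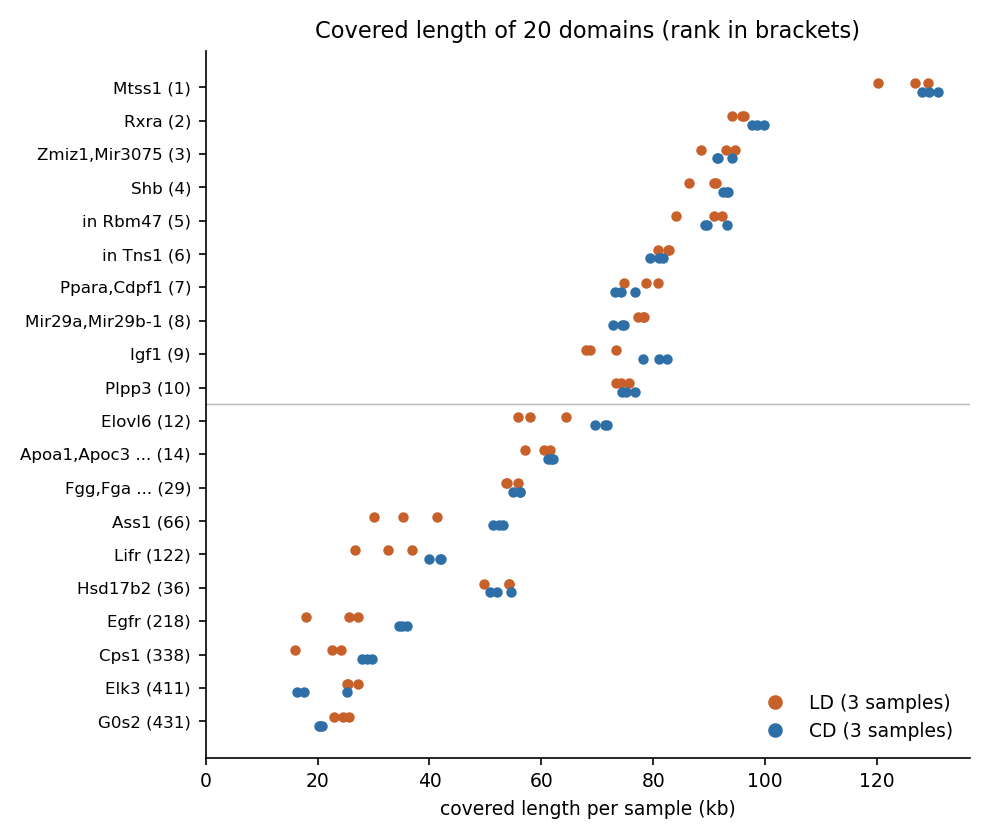
Covered length per sample (kb) in the 10 broadest domains (above the line) and in 10 other domains named for their genes, with the rank in brackets. Each orange point is an LD sample and each blue point a CD sample. Domains whose points do not overlap include Egfr, Ass1, Lifr, Cps1 and Elovl6 with CD higher, and G0s2 with LD higher. Among the 10 broadest they include Rxra, Shb and Igf1 with CD higher, and the Mir29a domain with LD higher.

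In all, 556 genes of the RNA-seq table started in 367 of the domains. A single start was found in 243 domains, 2 in 83, and 3 or more in 41, with a maximum of 6. In 209 of the 243 domains with a single start (86.0%), the domain reached further downstream of the start than upstream of it. Downstream lengths run to the end of the domain and can pass the end of the gene. At Foxa2, for example, 46.7 kb lay downstream of the start of a gene of 4.09 kb. The median was 25.8 kb downstream and 4.25 kb upstream. Mtss1 had 5.02 kb upstream and 128 kb downstream, Rxra 7.12 and 92.9 kb, and Igf1 4.41 and 79.4 kb. Gene bodies held 80.9% of the bases of domains, 75.2% of those of the next 500 loci in rank and 65.1% of those of all loci found in all 6 samples other than the domains.

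The other 133 domains contained no start site of the table. Of these, 106 lay inside a single gene body and 8 touched none, and the nearest start was a median of 22.4 kb away. In GENCODE, 14 of the 133 contained a gene start, 0 of them of a protein-coding gene. Domains without a start lay inside Insr (rank 19) and Egfr (rank 72), the insulin receptor and the EGF receptor.

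MicroRNA genes were part of this set. There were 27 in 23 domains, of which 26 were matched to RefSeq (GRCm38.p6) with 43 mature sequences and 40 different seeds. The miR-29 and let-7 pairs and 4 others known from liver are printed with the seed, bases 2 to 8, in capitals, because they show which domains hold members of a common seed family.
miR-29a-3p (rank 8): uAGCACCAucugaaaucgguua
miR-29b-3p (rank 8): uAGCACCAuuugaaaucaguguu
let-7b-5p (rank 27): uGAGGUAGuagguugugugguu
let-7c-5p (rank 27): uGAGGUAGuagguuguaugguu
miR-21a-5p (rank 58): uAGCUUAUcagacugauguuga
miR-107-3p (rank 61): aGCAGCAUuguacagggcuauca
miR-192-5p (rank 174): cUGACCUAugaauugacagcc
miR-194-5p (rank 174): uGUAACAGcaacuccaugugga
The miR-29 pair shared the seed AGCACCA and the let-7 pair the seed GAGGUAG, each pair inside a single domain. Mature miRNAs were not measured. The table of longer RNA listed Mir29a at 0.0839 to 0.392 CPM (counts scaled to library size) over the 10 mice, and Mir29b-1 at 0 in 8 of them.

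Genes that start in domains were highly expressed. Their median was 31.0 TPM (a level per length, scaled to library size) with quartiles of 9.52 and 119, and 155 of the 556 (27.9%) were above 100 TPM. Genes at the next 500 loci in rank had a median of 27.8 TPM, so this level was shared with the next loci in rank. Genes at the remaining loci found in all 6 samples had 8.31 TPM, those at loci found in fewer samples 0.337 TPM, and those outside H3K27ac loci 0. The domain genes were 2.18% of the rows of the table and took 28.9% to 31.9% of the counts of a mouse, of which Alb alone gave 6.11% to 7.52%.

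The highest levels included those of Alb, Fabp1, Apoe, Apoc1, Trf, Apoa1, Apoa2, Gc and Scd1. Alb (serum albumin) reached 61555 ± 4238 TPM on LD and 61189 ± 4282 on CD (SD, n = 5). Fabp1, the fatty acid binding protein of liver, had 30244 ± 1558 and 27069 ± 1275 TPM, and Apoe, the ligand for lipoprotein uptake, 21685 ± 2071 and 16965 ± 1369 TPM. Of these 9 genes, the test between diets called only Scd1. At the other end, 53 genes of the domains (9.53%) were under 1 TPM, so a domain did not imply a high level for each start it contained.

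**Figure D3:**
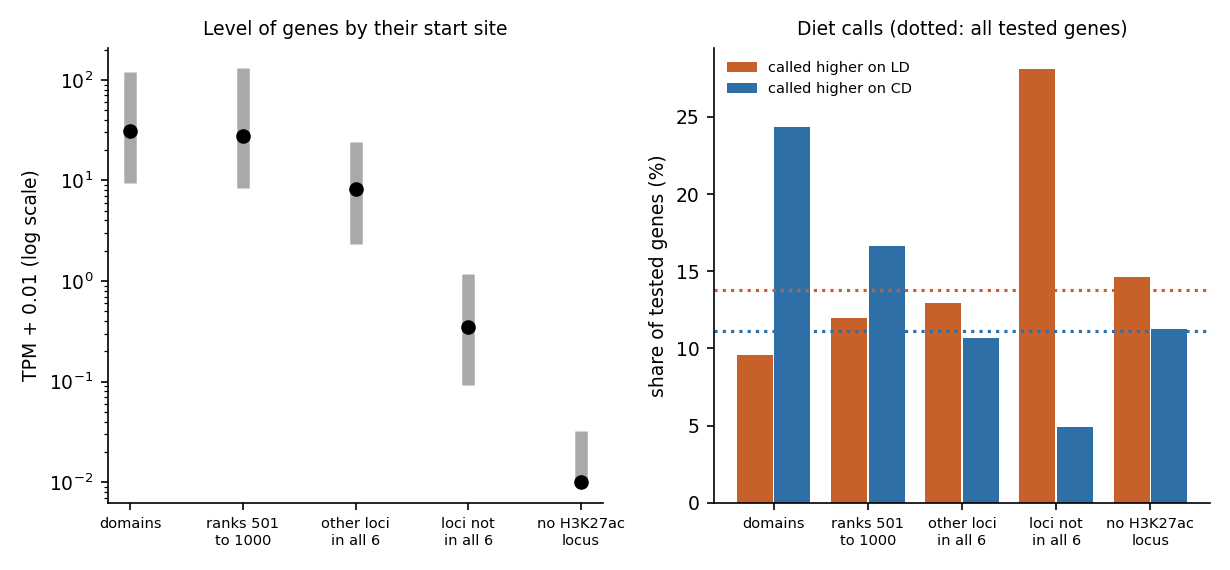
Left, median TPM (points, a constant of 0.01 added, log scale) and quartiles (bars) of genes by the H3K27ac locus that holds their start site, where other loci in all 6 are those ranked after 1000. Right, the share of tested genes called higher on LD (orange) or CD (blue), with dotted lines for all tested genes, where domains have the largest share of CD calls of the 5 classes, 24.4%.

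Of the 556 domain genes, 55 had too few counts to be tested, and of those tested 48 (9.58%) were called higher on LD and 122 (24.4%) higher on CD. Over all 13494 genes tested, 13.8% were called higher on LD and 11.1% higher on CD, so the domains held fewer LD calls and more CD calls than the background. A call needed a Benjamini-Hochberg adjusted p-value below 0.05 in edgeR's quasi-likelihood test and a fold change above 1.2. The direction was the same among genes above 10 TPM, where the shares were 10.7% and 25% in domains and 12.9% and 11.6% outside. Genes at the next 500 loci in rank were intermediate, with 12.0% and 16.6%. With limma on log2(TPM + 1), 65 domain genes (13%) were called higher on LD and 81 (16.2%) higher on CD, against 16.5% and 5.48% of all genes. For the 221 tested genes lying wholly inside a domain the shares were 12.7% on LD and 24.0% on CD. The labels name replicates without saying more of their origin, and p-values measure the spread between these samples.

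Hepatocyte markers summed to overlapping levels on the 2 diets, 102530 to 117631 TPM on LD and 104018 to 118145 TPM on CD, with 3 of the 10 called higher on CD and 0 on LD, and 5 of these 10 genes start in domains. Markers of Kupffer cells, lymphocytes, stellate cells, cholangiocytes and adipocytes contributed 0 genes to the domains, and endothelial markers contributed Ptprb, while the domain of rank 499 lies inside Pecam1. Adipocyte markers summed to 183 to 264 TPM on LD and 20.7 to 31.3 on CD, with Plin1 and Lep listed at 0 and 4 of the 4 tested called higher on LD. Kupffer cell markers summed to 893 to 1991 TPM on LD and 546 to 1029 on CD, with 1 of 12 called. Stellate markers summed to 392.5 to 652 TPM on LD and 371 to 432 on CD, with 5 called higher on LD and 1 on CD, and cholangiocyte markers to 55.0 to 153.5 TPM on LD and 22.9 to 39.5 on CD, with 1 called in each direction. Lymphocyte markers summed to 9.86 to 19.0 TPM on LD and 8.69 to 10.9 on CD, with 2 called higher on LD and 1 on CD, and endothelial markers to 331 to 453 and 370.5 to 430.1 TPM, with 1 called higher on LD. The part of these cells in the diet changes of the domain genes was not tested.

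Egfr, the EGF receptor of hepatocytes, had the largest decrease on LD among domain genes with separated diets. It held 219.8, 290.0, 158, 71.7 and 87.1 CPM (scaled by TMM) in the 5 LD mice and 904, 1107, 909, 933 and 624 CPM in the 5 CD mice. The log2 fold change of Egfr, LD over CD here and throughout, was -2.44 ± 0.39 (SE) with an adjusted p of 0.00200. Both domains at this gene, ranks 72 (inside the gene) and 218 (at its start), were also broader in all CD samples, and the latter covered 25600, 27200 and 18000 bp on LD and 34600, 35000 and 36000 bp on CD. Lifr, the receptor of leukaemia inhibitory factor, held 212, 193, 185, 147.5 and 151 CPM on LD and 392, 381, 407, 551 and 440.3 CPM on CD (log2 fold change -1.29 ± 0.12, adjusted p = 2.10e-05). Its domain covered 36800, 32600 and 26600 bp on LD and 41800, 42000 and 40000 bp on CD. For both receptors no LD value reached the lowest CD value, in RNA or in covered length.

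Cps1, which commits ammonia to the urea cycle, held 3560, 3822, 2050, 2303 and 2050 CPM on LD and 7425, 8342, 6914, 6490 and 5575 CPM on CD, or -1.33 ± 0.19 on the log2 scale (adjusted p = 5.45e-04). Its domain on chr1:67155600-67186999 was broader in all CD samples, by 0.46 on the log2 scale. Ass1, argininosuccinate synthase of the same cycle, had a domain of 41400, 35200 and 30000 bp on LD and 51400, 53200 and 52400 bp on CD, and its RNA fell by 0.54 on the log2 scale on LD (SE 0.13, adjusted p = 0.00662) with overlapping values. Of the 22 genes of the amino acid and urea cycle list, 5 start in domains, and 3 of the 5 (Cps1, Ass1 and Ahcy) were called higher on CD. Beside this and the list counts below stand the shares of all tested domain genes, 9.58% called on LD and 24.4% on CD. Over all genes tested the shares were 13.8% and 11.1%. Asl and Mat1a of that list had log2 fold changes of -0.24 and 0.18 and were not called.

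Of the 37 plasma proteins listed, 10 start in domains, and edgeR called 7 of these higher on CD and 0 on LD. Of all tested domain genes 24.4% were called higher on CD, and of all genes tested 11.1%. In edgeR 1 of the 10 was higher on LD at an unadjusted p below 0.05, and DESeq2 and limma called 0 on LD. The 3 fibrinogen chains, which start in a single domain, changed alike. Fgb held 2908, 2967, 2703, 3082 and 2446 CPM on LD and 5219, 4969, 4213, 5172 and 4371 CPM on CD (log2 fold change -0.76 ± 0.09, adjusted p = 8.43e-05). Fgg and Fga had log2 fold changes of -0.71 and -0.62. Igf1, which liver secretes under growth hormone, held 379, 358.5, 283, 264 and 265 CPM on LD and 442, 489.7, 546, 513 and 449.8 CPM on CD (log2 fold change -0.66 ± 0.11, adjusted p = 9.43e-04). Ahsg (fetuin A), C3 (complement) and Plg (plasminogen) had -0.55, -0.52 and -0.41. Alb, Trf and Gc were not called, at -0.07, 0.18 and 0.06, so the most abundant of these proteins did not pass.

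The fibrinogen promoters are printed because the 3 genes share a domain and moved together. Each is the 250 bases before the RefSeq start (GRCm38.p6) in the direction of the gene, with matches to either motif in capitals.
Fga promoter, plus strand, chr3:83025903-83026152: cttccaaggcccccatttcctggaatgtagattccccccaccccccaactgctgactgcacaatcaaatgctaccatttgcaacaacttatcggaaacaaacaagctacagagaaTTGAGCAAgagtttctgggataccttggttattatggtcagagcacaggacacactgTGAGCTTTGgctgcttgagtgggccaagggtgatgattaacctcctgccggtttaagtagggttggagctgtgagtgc
Fgb promoter, minus strand, chr3:83049864-83050113: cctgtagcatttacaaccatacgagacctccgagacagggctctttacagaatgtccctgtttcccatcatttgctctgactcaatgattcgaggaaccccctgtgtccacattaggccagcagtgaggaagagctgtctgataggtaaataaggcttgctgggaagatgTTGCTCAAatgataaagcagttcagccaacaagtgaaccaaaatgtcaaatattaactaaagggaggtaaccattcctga
Fgg promoter, plus strand, chr3:83007474-83007723: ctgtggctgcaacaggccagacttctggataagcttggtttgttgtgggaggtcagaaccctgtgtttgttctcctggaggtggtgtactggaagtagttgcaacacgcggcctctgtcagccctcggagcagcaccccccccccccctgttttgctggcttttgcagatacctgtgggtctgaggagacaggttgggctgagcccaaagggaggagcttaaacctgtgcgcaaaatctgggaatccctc
The Fga sequence holds 1 match to each motif, the Fgb sequence 1 match to the C/EBPa motif, and the Fgg sequence 0 matches. The nearest C/EBPa locus found in all 4 libraries was centred 135 bp from the Fga start, 153 bp from the Fgg start and 2476 bp from the Fgb start. The 300-base promoters (250 bases before to 50 after the start) of 418 of the 556 domain genes were matched to RefSeq. Of these 7.42% hold the Hnf4a motif and 8.61% the C/EBPa motif, and of all 27025 promoters 6.37% and 10.8%.

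Lipid metabolism was represented in the domains by genes that moved in both directions. Of 21 genes of lipogenesis and triglyceride synthesis, 10 start in domains. Of these, 4 were called higher on CD (Elovl6, Acaca, Scd1 and Fasn) and 2 higher on LD (Lpin2 and Fads2). Among all tested domain genes the shares were 24.4% on CD and 9.58% on LD. Elovl6, which elongates palmitate, held 240.2, 228.5, 305, 214 and 289.6 CPM on LD and 544, 496, 477, 398 and 395 CPM on CD (log2 fold change -0.85 ± 0.12, adjusted p = 2.47e-04). Its domain, rank 12, covered 64400, 55800 and 58000 bp on LD and 69600, 71400 and 71800 bp on CD, without overlap. Lpin2, a phosphatidate phosphatase, held 553, 489.6, 549, 491 and 404 CPM on LD and 295.5, 291, 287, 362 and 328 CPM on CD, or 0.67 ± 0.10 on the log2 scale (adjusted p = 3.19e-04). The Lpin2 domain was broader in all LD samples. Gpam, Agpat2, Dgat2 and Elovl5 were not called, with log2 fold changes from -0.28 to 0.39.

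The apolipoprotein list had the largest share of its genes in domains, 11 of 18. Apoa4, which chylomicrons and liver lipoproteins carry, held 1735, 2196, 6106, 5430 and 6807 CPM on LD and 1724, 1209, 1184, 1339 and 1392 CPM on CD. Its log2 fold change of 1.70 ± 0.38 (adjusted p = 0.00978) was the largest on LD among domain genes with separated diets, and the lowest LD mouse lay just above the highest CD mouse. Its neighbours Apoa1 and Apoc3 in the same domain had -0.20 and -0.13 and were not called, and the covered length of that domain overlapped. Scarb1, the HDL receptor, was called higher on CD at -0.29, which without CD mouse 4 became -0.23 and was not called. A separate read-through row, Apoc4-apoc2, spans Apoc4 and Apoc2, so the counts of these genes may be split.

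Fatty acid oxidation and ketogenesis had 8 of 30 genes in domains, of which 3 were called higher on LD and 0 on CD by edgeR, where 1 was higher on CD at an unadjusted p below 0.05 and DESeq2 and limma called 0. Ppara itself held 569, 438, 521, 564 and 430.4 CPM on LD and 365, 369, 396, 423.5 and 435.5 CPM on CD (log2 fold change 0.34 ± 0.10, adjusted p = 0.0160), with 1 LD mouse below the highest CD mouse.

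Of 19 glucose and glycogen genes 7 start in domains, and G6pc (glucose 6-phosphatase) and Tat (tyrosine aminotransferase) were called higher on CD, at -1.20 and -0.88. None was called higher on LD by edgeR or DESeq2, where 1 was higher on LD at an unadjusted p below 0.05 and limma called 1. Without LD mouse 5 the value of Tat was -0.78 and was not called. Mlxipl, the carbohydrate response factor ChREBP, held 43.8, 32.1, 42.0, 40.4 and 41.5 CPM on LD and 73.8, 79.6, 87.3, 94.3 and 81.9 CPM on CD, or -1.06 ± 0.09 on the log2 scale (adjusted p = 8.57e-06). Slc10a1, the uptake transporter for bile acids, held 475, 356.5, 399.5, 396 and 285 CPM on LD and 797, 791, 873, 855 and 738.5 CPM on CD, or -1.09 ± 0.11 on the log2 scale (adjusted p = 3.44e-05). In both genes the diets were far apart. Of 21 bile acid and transporter genes 5 start in domains, and 3 of the 5 (Slc10a1, Abca1 and Slc39a14) were called higher on CD. The share among all tested domain genes was 24.4%.

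Transcription factors of hepatocytes were frequent in domains, 13 of 31 on the list. Ppara and Nr1i3, the receptor CAR, were called higher on LD, at 0.34 and 0.67. Mlxipl, Foxa3, Nfib and Prox1 were called higher on CD, at -1.06, -0.51, -0.37 and -0.56. Without CD mouse 3 the value of Prox1 was -0.41, and without LD mouse 4 that of Nfib was -0.30, and neither was then called. Cebpa, the gene of C/EBPa, starts in the domain of rank 138 and held 328, 288.5, 334, 354.5 and 299 CPM on LD and 391, 419, 362, 363 and 384 CPM on CD. All CD mice were above all LD mice, but the log2 fold change of -0.26 was under the fold required. Bcl6, a repressor, held 13.3, 12.4, 7.04, 7.82 and 5.34 CPM on LD and 55.2, 53.6, 47.7, 10.2 and 5.73 CPM on CD, so that 3 CD mice stood apart from the other 2, and it was not called (adjusted p = 0.0628) although DESeq2 called it. Rxra, Nr1h4, Foxa2, Gata4 and Nr1i2 were not called, and the clock list had only Per2 of its 19 genes in a domain, also not called.

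Of 27 cytochromes P450 and conjugating enzymes 4 start in domains (14.8%, against 2.18% of all rows), and Cyp8b1, the sterol 12-alpha-hydroxylase of bile acid synthesis, was called higher on LD at 0.40, which without CD mouse 4 became 0.32 and was not called. Of 45 immediate early, stress and growth response genes 7 start in domains, and Txnip, an inhibitor of thioredoxin, was called higher on LD at 0.34.

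Where the diets did not overlap and 1 of them averaged 1 CPM or more, the largest called changes outside these lists included Paqr7, Aldh1a1, Slc25a10, Prune, Gss and Atp9a on LD, at log2 fold changes from 1.05 to 0.77, and Hsd17b2 and Ttc39c on CD, at -1.01 and -0.94. Paqr7, a membrane progestin receptor in the domain of rank 498, held 110.5, 82.5, 130.1, 111 and 103 CPM on LD and 47.0, 43.4, 53.4, 52.5 and 63.4 CPM on CD. Aldh1a1, which makes retinoic acid, held 2526, 1947, 2803, 2969 and 2436 CPM on LD and 1302, 1085, 1775, 1285 and 1628 CPM on CD. Hsd17b2, which inactivates sex steroids, held 87.2, 88.9, 84.3, 104 and 81.5 CPM on LD and 206, 166, 182, 161 and 181 CPM on CD. In each of these 3 genes the LD and CD values did not overlap.

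Covered length itself separated the diets in 125 domains. In 39 domains (7.80%) all LD samples were above all CD samples, and in 86 (17.2%) all CD samples were above all LD samples. Among the 29890 loci found in all 6 samples these shares were 10.2% and 5.18%. The LD samples covered more bases in all, 149.8 to 160.4 Mb against 139.7 to 145.4 Mb on CD, and the domains held 10.5%, 10.02% and 10.2% of them on LD and 11.4%, 11.2% and 11.7% on CD. When each value was divided by the total of its sample, 8 domains (1.60%) were higher in all LD samples and 297 (59.4%) higher in all CD samples, and the shares of all loci were 6.78% and 15.2%. The scaling thus decided the number of separated domains, and on both scales CD was the diet with more.

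The largest differences, picked after their values were seen, lay at domains inside genes or between them. A domain inside Cmah (rank 321), the hydroxylase that makes N-glycolylneuraminic acid, covered 26200, 17400 and 13800 bp on LD and 30800, 31400 and 33200 bp on CD, a log2 ratio of -0.73. A domain inside Upp2 (rank 447), a uridine phosphorylase, covered 20000, 18400 and 14600 bp on LD and 27600, 25200 and 27000 bp on CD. In these, LD sample 3 was the lowest. In the opposite direction, an intergenic domain on chr9:65380400-65413999 (rank 330) covered 28800, 32800 and 28400 bp on LD and 22000, 21800 and 17600 bp on CD, a log2 ratio of 0.55. A domain inside Myo9b (rank 241), an unconventional myosin, covered 31200, 34400 and 34800 bp on LD and 23600, 22400 and 25000 bp on CD.

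RNA was then read in the separated domains. The 86 domains broader on CD contained 88 tested genes, of which 44 (50.0%) were called higher on CD and 0 higher on LD. The 39 domains broader on LD contained 27 tested genes, of which 8 were called higher on LD and 0 higher on CD, and Aldh1a1, Lpin2, Atp9a and Paqr7 were among the 8. Against these 2 counts of 0 in edgeR, 2 genes of the CD-broader domains were higher on LD and 1 gene of the LD-broader domains higher on CD at an unadjusted p below 0.05, and DESeq2 called 2 and 0 and limma 2 and 0. These counts hold for unscaled lengths. With scaled lengths the 297 CD-broader domains contained 308 tested genes, of which 97 (31.5%) were called higher on CD and 12 higher on LD, and the 8 LD-broader domains contained 1. In the other 375 unscaled domains 40 of 386 genes were called higher on LD and 78 on CD. Outside the domains the same direction was seen, since loci broader on CD had 139 of 438 genes (31.7%) called higher on CD and 9 higher on LD, and loci broader on LD had 325 of 1060 (30.7%) called higher on LD and 41 higher on CD. The 8 of 27 (29.6%) in LD-broader domains was thus near the share elsewhere. RNA and H3K27ac came from different numbers of animals, and no test of the difference between domains and other loci was made.

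**Figure D4:**
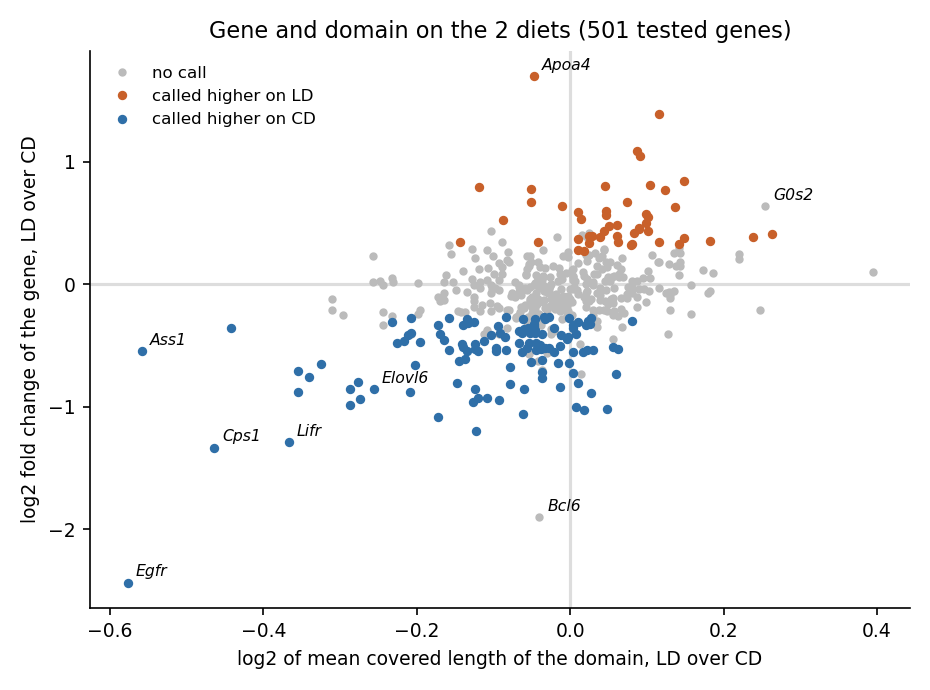
Log2 ratio of mean covered length, LD over CD, of the domain (horizontal) against the log2 fold change of RNA, LD over CD, of each tested gene that starts in it (vertical). Blue genes, called higher on CD, lie mainly to the lower left with Egfr at -0.58 and -2.44, and Apoa4 lies high above the middle at -0.05 and 1.70.

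Hnf4a and C/EBPa were present at nearly every domain. A peak was found in 97.8% to 99.0% of domains in the 4 Hnf4a libraries and in 97.4% to 98.4% in the 4 C/EBPa libraries, against 56.2% to 66.4% and 43.0% to 50.2% of the other loci found in all 6 samples. The next 500 loci in rank were close, with 96.0% to 97.8% and 92.8% to 95.8%. Domains are longer, so the density was compared. Hnf4a peaks numbered 0.145 and 0.137 per kb on LD and 0.129 and 0.159 on CD in domains, and 0.176, 0.171, 0.152 and 0.195 in the other loci in that order. The mean ratio was 0.823 (0.802 to 0.848), lower in domains in 4 of 4 libraries. C/EBPa peaks numbered 0.124 and 0.124 per kb on LD and 0.104 and 0.0965 on CD in domains, with a mean ratio of 0.926 (0.884 to 0.955), also lower in 4 of 4. Against the next 500 loci in rank the ratios were 0.922 and 0.960. The comparisons with all other loci each gave p = 0.13 in a two-sided exact sign-flip permutation test, the smallest value that 4 libraries allow.

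The order turned when only peaks above the median height of their library were counted. The Hnf4a ratio was then 1.05 (1.01 to 1.11) and the C/EBPa ratio 1.03 (1.01 to 1.04), higher in domains in every library (exact permutation p = 0.13 for each). Peaks in domains were higher than in the set of all other loci found in all 6 samples. Median Hnf4a heights were 40.5, 38.2, 27.5 and 46.2 in domains and 26.8, 26.5, 19.0 and 29.5 in the other loci, for LD 1, LD 2, CD 1 and CD 2. C/EBPa heights were 16.5, 18.5, 31.0 and 22.5 in domains and 15.0, 16.0, 23.5 and 18 in the others. At loci found in all 4 libraries, the median height was 51.2 for Hnf4a in domains and 46.6 in the next 500 loci in rank, and for C/EBPa 33.5 and 34.6, so the C/EBPa height was not higher in domains than in these. In these libraries domains thus held fewer low peaks per kb of both factors and slightly more high ones. With 4 libraries the test cannot decide either difference.

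**Figure D5:**
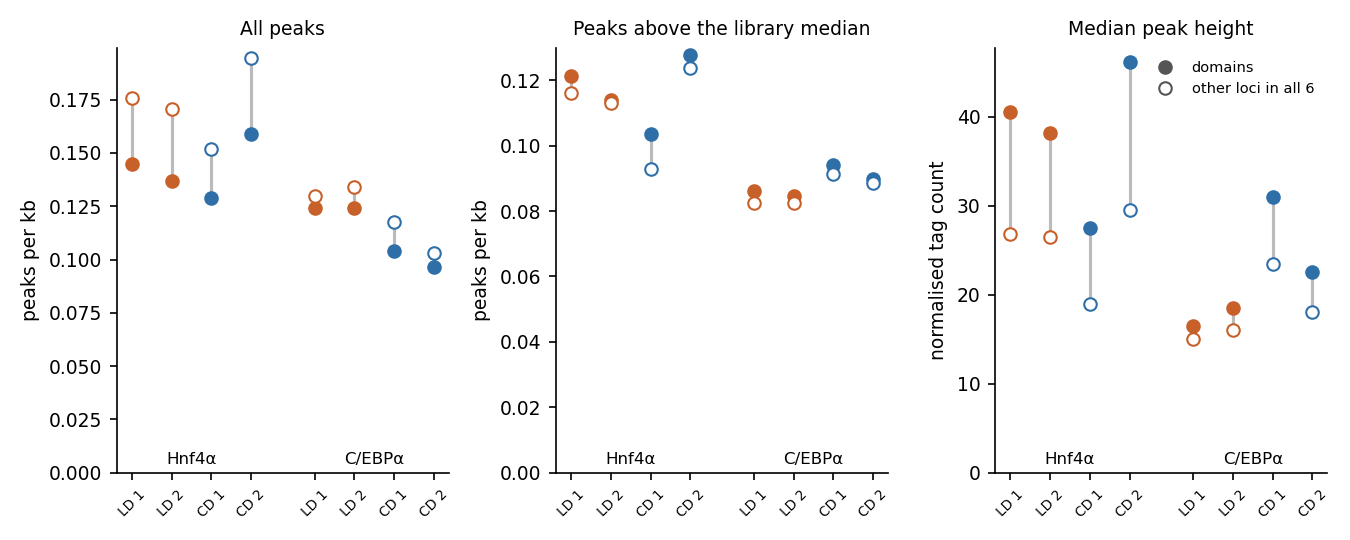
Peaks per kb (left, all peaks, and middle, peaks above the library's median height) and median peak height (right, normalised tag count) for each Hnf4a and C/EBPa library, in domains (filled) and in the other loci found in all 6 samples (open). Orange is LD and blue is CD, and the filled points lie under the open points on the left and over them in the middle and on the right.

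Between diets, Hnf4a density in domains was 0.141 ± 0.00578 per kb on LD and 0.144 ± 0.0212 on CD (SD, n = 2), a ratio of 0.979 (exact permutation p = 1, two-sided). C/EBPa density was 0.124 ± 7.82e-05 on LD and 0.1004 ± 0.00539 on CD, a ratio of 1.24 (exact permutation p = 0.33, the smallest that 2 against 2 allow). The other loci moved alike, with 0.129 and 0.1297 per kb on LD and 0.1105 and 0.0989 on CD in the next 500 in rank, and 0.13 and 0.134 on LD and 0.118 and 0.103 on CD in all loci found in all 6 samples other than the domains. Outside H3K27ac loci lay 32.1% and 31.4% of the C/EBPa peaks of the LD libraries and 43.6% and 55.4% of those of the CD libraries, which moved with this difference. Its part in the difference was not tested. Heights went the other way, because both CD libraries were above both LD libraries at 686 of the 1148 C/EBPa loci in domains (59.8%) at 57.7% of those in the next 500 loci in rank and at 49.6% of those in all other loci.

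Loci found in all 4 libraries of a factor numbered 1834 for Hnf4a and 1148 for C/EBPa in the domains. They fell in 482 and 461 domains, 452 domains had both, and 9 had neither. Zmiz1 had the most Hnf4a loci, 16, with 10 C/EBPa loci, and Shb had 12 and 7, the domain inside Rbm47 10 and 9, and Mtss1 8 and 10. The fibrinogen domain held 9 of each although it is shorter than the first 10. Of the Hnf4a loci in domains 35.4% overlapped a C/EBPa locus, against 30.2% in the other loci, and of the C/EBPa loci 56.6% overlapped a Hnf4a locus, against 54.1%. In the next 500 loci in rank these shares were 35.0% and 58.6%, close to the domains.

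The motifs shown above were not more frequent in the domains. The Hnf4a letters were present in 20.6% of Hnf4a loci in domains, 22.3% in other loci found in all 6 samples and 31.1% outside H3K27ac. In windows 1000 bp away the share was 2.62% for the domains. The C/EBPa letters were present in 38.5%, 38.8% and 56.8% of C/EBPa loci in the same order, and in 4.18% of the distant windows. These matches describe the letters in 121-base windows and not binding sites.

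The 457 bait fragments in 341 domains had a median of 7 interactions at a CHiCAGO score of at least 5 on either diet, with quartiles of 2 and 16 on LD and 2 and 18 on CD. Bait fragments at other loci found in all 6 samples had a median of 5 on both diets, and those outside 4 on LD and 3 on CD. At least 20 interactions were listed for 19.5% of the domain fragments on LD and 21.7% on CD, and for 15.8% and 15.9% of those at other loci. Scores came from pooled replicates, so no test was made. At a score of at least 10 the medians on LD and CD were 0 and 1 in domains and 0 and 0 at other loci, so on LD the medians no longer differed.

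The domain at Usf2 and Lsr (rank 239) had the most interactions, 173 on LD and 154 on CD over 3 bait fragments. Dhrs3, a retinal reductase, had 153 on each diet from 1 fragment, and the domain at Trabd (rank 465) 135 and 133. Foxa3 with Irf2bp1 and Sympk followed with 96 and 122, and Zbtb39 with Gpr182 and Rdh1 with 107 and 87. Among the 10 broadest domains the numbers on LD and CD ranged widely, from 1 and 1 at the miR-29 domain and 1 and 8 at Ppara to 38 and 43 at Mtss1 and 65 and 73 at Igf1. The domains inside Rbm47 and Tns1 held no bait fragment.

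Promoter fragments in domains took part in 5595 interactions on LD and 5978 on CD, and 4230 of them were listed on both diets. This was 75.6% of those of LD and 70.8% of those of CD, against 69.5% and 70.2% of all interactions, so on CD it was near the background. Of the 133 domains without a start site, 65 were contacted by the same promoter on both diets. The domain inside Insr was contacted by the Insr promoter with scores of 10.55 on LD and 10.96 on CD. A domain inside Adgrv1 (rank 157) was contacted by Arrdc3 with scores of 38.3 and 34.3, and one inside Prkce (rank 492) by Epas1 with 25.5 and 27.2, both picked after their values were seen. A contact with another domain was listed for 84 domains on LD and 86 on CD.

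Topologically associating domains (TADs), the intervals within which chromatin contacts concentrate, were set beside the acetylated domains. A TAD boundary lay in 34 of the 500 on LD and 31 on CD, and 465 and 468 lay within 1 TAD. Boundaries numbered 1.88 and 1.71 per Mb of domain on LD and CD, and 2.25 and 2.20 per Mb of the genome. The rate in domains was thus slightly below that of the genome, and the difference was not tested. The other loci found in all 6 samples held 4.11 and 3.91 per Mb.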

How the data were processed

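The authors aligned ChIP-seq reads to mm9 with Bowtie 0.12.8, called H3K27ac peaks per sample with SICER (200 bp windows) and Hnf4a and C/EBPa peaks with HOMER, and deposited intervals and, for the factors, a normalised tag count (a signal scaled to library size). RNA-seq read pairs were aligned with STAR 2.5 and counted by strand with featureCounts 1.5.0-p1, and the authors deposited raw counts and TPM values per gene, with ribosomal RNA depleted. For PCHi-C the deposited lists hold CHiCAGO scores of at least 5 from pooled replicates, and for Hi-C the TADs of pooled replicates. Input libraries and the authors' own comparison columns (fold changes and adjusted p-values in the TPM table) were not used. The TPM column that the authors headed as CD replicate 13 was used as a CD mouse without a number. Unmapped columns of values numbered 0.

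RNA depth was 31707963 to 39012699 counts per mouse. Read totals of the ChIP-seq libraries are not in the peak lists and were not used here. Counts were tested with edgeR 4.0.16 (TMM, filterByExpr, robust quasi-likelihood) in R 4.3.3, with DESeq2 1.42.0 and limma 3.58.1 as alternatives. Tested on simulated counts of the LD and CD comparison (13429 rows), the step recovered 164 of 200 changed genes, 100 of 101 at 2-fold, with 6 false calls. Intervals were handled in Python 3.11.15 with numpy 2.4.6, pandas 2.3.3 and scipy 1.17.1, and figures were drawn with matplotlib 3.10.9. The peaks of a factor were assigned to a locus by their centre. Gene bodies and start sites were those of the count table, and mm9 sequence was NCBIM37 with GENCODE genes.

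The members and gene lists were chosen with earlier results of these data known. Named genes are those of the 10 broadest domains, the 10 with the highest TPM, the 10 called with the largest change in each direction without overlap and with a mean of at least 1 CPM, and list members. Named domains are the first 10, those next to rank 500, and those with most factor loci or interactions. Further domains and genes are said to be picked later, or are single examples of a class. Alternatives were other merging, ranking and numbers of domains, other tools, filters and scalings, other peak heights and scores, a replicate block, and the omission of each library. A few named genes are left out here.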

Additional observations from a re-analysis of the deposited data

Results flagged for a closer look

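In 3 of the 196 groups of 5 mice examined, 1 mouse stood far from the other 4. Chance marks about 1 group in 20. Apoc3, in the domain of rank 14, had 1160 CPM in LD mouse 5 and 1317 to 1361 CPM in the other LD mice. Por, the reductase partner of cytochromes P450, had 86.4 CPM in LD mouse 5 and 152 to 178 CPM in the others. Dgat2, the last enzyme of triglyceride synthesis, had 659.6 CPM in CD mouse 3 and 522 to 558 CPM in the others.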

How the results depend on the processing

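With genes required to lie wholly inside a domain, 28 of 221 tested (12.7%) were called higher on LD and 53 (24.0%) on CD. With 250 domains the calls were 26 and 69 of 260 (all 250 are among the 500), and with 1000 domains 97 and 190 of 910. With limma on log2(TPM + 1), 81 genes were called higher on CD. For peaks above the median height the domain ratio reversed to 1.05 for Hnf4a and 1.03 for C/EBPa, and the cause was not tested. Median interactions were 0 on LD and 1 on CD at a score of at least 10 (0 and 0 at other loci), and 4 and 5 for contacts with non-promoter fragments (3 and 3). Scaled covered lengths separated 8 domains on LD and 297 on CD. Leaving out 1 library gave 39 to 56 LD and 104 to 128 CD calls, and C/EBPa ratios between diets of 1.19 to 1.29. The replicate block gave 46 and 120 calls, and Apoa4 (1.53), Nfib (-0.38), Cyp8b1 (0.40) and Prox1 (-0.53) were not called with it. Same-numbered mice correlated at -0.08 to 0.19, so the numbers were not taken to pair them. Among 91 named genes examined, none that was called in either fit changed direction under the RNA settings run. Changes of sign in genes without a call were not counted. Peak lists used without read totals, 2 libraries per diet for each factor and pooled contact maps limit what could be tested.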
